A study of Rattus norvegicus with 110 samples.

Results

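The 9 genes described here are the histone demethylase genes Kdm1a, Kdm4a, Kdm4b, Kdm4c, Kdm5d, Kdm6a and Kdm6b, with Jmjd6 and Riox1, which encode proteins with a JmjC domain. They are all the genes with a symbol beginning with Kdm, Riox or Jmjd among the 1489 of 31998 Ensembl gene identifiers that the study's supplementary gene lists pair with a symbol, and Phf2 and Phf8 had no entry there. The deposited tables hold identifiers alone, and of the other listed demethylases and JmjC proteins 1 of 24, Jarid2, had an identifier, while the rest were not analysed here. All 9 are on the list that the study chose by an effect of F0 treatment in the same liver libraries, and none is on its list for kidney. The F0 difference in liver is therefore given below as a description, and the CCl4 dose, the F1 treatment, the kidney and the comparison of organs are measures that did not choose the genes. In part an exception is Riox1, which is also on the study's shorter list of genes with an F1 estimate of the same sign as the F0 estimate and differences of vehicle cohorts D and C from A.

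Methyl groups on the lysines of histones are written by methyltransferases and removed by demethylases, and the marks at a gene are linked to how actively it is read. Kdm1a (LSD1) removes methyl groups from H3K4, a lysine of histone H3, with flavin as cofactor and the corepressor Rcor1 as partner. The JmjC enzymes use iron, oxygen and 2-oxoglutarate instead: Kdm4a, Kdm4b and Kdm4c act on H3K9 and H3K36, Kdm5d on H3K4, and Kdm6a (UTX) and Kdm6b (JMJD3) on H3K27. Kdm5d lies on the Y chromosome, and Kdm6a on the X chromosome with a related copy on the Y. Kdm6b is known as a gene that inflammatory signals switch on in macrophages. Jmjd6 is a lysyl hydroxylase of splicing factors and Riox1 a ribosomal oxygenase of the nucleolus, and a role of each as a histone demethylase has been proposed.

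Adult outbred Sprague Dawley males of the F2 generation had received olive oil alone (vehicle), 8% CCl4 in olive oil (low dose) or 50% CCl4 (high dose) by gavage at 0.5 mL/kg, 3 times a week for 6 weeks, and livers were taken on the day after the last dose. CCl4 is a hepatotoxin that is activated in hepatocytes and leads to fibrosis when given repeatedly. Cohort A had no treated ancestor, cohort B a treated F1 sire, cohort C a treated F0 sire and cohort D both. A treated sire had been given 50% CCl4 on the same schedule with 2 weeks of recovery before mating to an uninjured female, and an untreated sire olive oil. There were 7 liver libraries in each of the 12 groups except 6 for the vehicle males of cohort C, 83 in all, and 27 kidney libraries of the vehicle males (7, 7, 6 and 7 for cohorts A to D). The males descended from 8 control and 9 treated F0 sires through 34 litters, each taken on 1 of 4 necropsy dates, so males of a litter share a sire and a date.

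Library totals lay between 31638559 and 51343589 estimated counts in liver and between 21961746 and 35055218 in kidney. The lowest count of any of the 9 genes was 133 in liver and 176 in kidney, both for Riox1. TPM are counts divided by transcript length, then scaled to the same sum in each library. Tat, a hepatocyte enzyme, had a median of 296 TPM in liver and 0.117 in kidney, and the kidney tubule receptor Lrp2 302 TPM in kidney and 1.03 in liver. Among the livers, the libraries of 1 high-dose male of cohort D and 1 vehicle male of cohort C were least like the others of their group (median correlation of log2 CPM 0.842 and 0.907). Among the kidneys, those of 1 male of cohort C and 1 of cohort D stood farthest apart (0.948 and 0.954). Results are given without these 4 libraries where that changed a call.

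Per transcript length, in TPM, the 9 genes had low levels in the livers of the 27 vehicle males. Kdm4c stood first with a median of 14.6 TPM (6.93 to 20.6) and was above Kdm1a, the next in order, in all 27 libraries. Kdm1a had 9.12 TPM at the median, Kdm4a 7.76, Kdm6a 7.70, Kdm6b 6.76, Jmjd6 6.03, Kdm4b 5.21, Kdm5d 4.83 and Riox1 4.50. Below Kdm4c, neighbours in this order did not differ beyond their spread, since each was above the next in 15 to 19 of 27 libraries. The vehicle male of cohort C whose library stood apart had the lowest level of all 9 genes. The place of Kdm4c rests on the short transcripts assigned to it, with a median average length of 1131 bases against 4485 for Kdm4a and 4712 for Kdm4b. Reads of the Kdm4 genes, of Kdm5d and its relatives and of Kdm6a and its Y-linked copy can come from near-identical stretches, so the split between such genes is uncertain.

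At the high dose of CCl4 the Kdm4 genes moved apart: Kdm4a rose, and Kdm4b and Kdm4c fell, relative to the median gene. The sequences before the starts of these genes are shown because their products act on the same lysines. Their RNA moved in opposite directions relative to the median gene. They are the 250 bases before the start in RefSeq (build GRCr8, used for sequence only), 5′ to 3′ in the direction of the gene, with capitals for the E-box CACGTG and for CCAAT or its reverse complement ATTGG, searched on both strands.
Kdm4a, chr5:137004913-137005162, minus strand: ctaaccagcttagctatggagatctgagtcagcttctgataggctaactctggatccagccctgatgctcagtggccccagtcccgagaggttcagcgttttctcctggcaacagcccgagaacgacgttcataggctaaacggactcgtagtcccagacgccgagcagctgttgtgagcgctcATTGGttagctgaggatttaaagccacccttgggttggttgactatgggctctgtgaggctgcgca
Kdm4b, chr9:1245653-1245902, plus strand: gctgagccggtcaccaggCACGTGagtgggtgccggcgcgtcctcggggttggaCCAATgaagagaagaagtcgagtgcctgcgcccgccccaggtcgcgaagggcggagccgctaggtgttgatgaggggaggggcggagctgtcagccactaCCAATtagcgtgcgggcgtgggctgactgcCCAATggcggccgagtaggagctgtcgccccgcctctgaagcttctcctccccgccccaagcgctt
Kdm4c, chr5:93146787-93147036, plus strand: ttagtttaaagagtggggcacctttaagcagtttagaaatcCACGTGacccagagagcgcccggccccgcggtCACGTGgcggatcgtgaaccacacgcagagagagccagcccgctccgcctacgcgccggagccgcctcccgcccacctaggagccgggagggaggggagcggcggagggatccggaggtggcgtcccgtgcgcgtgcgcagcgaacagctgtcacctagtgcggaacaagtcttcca
Of the 9 genes, 8 had a RefSeq window and Kdm6a did not. The E-box stood in the windows of Kdm4b (1 match, 232 bases before the start) and Kdm4c (2 matches, at 209 and 177 bases) and in 5.59% of all 33469 windows of this length. CCAAT stood in Kdm4a (1 match, at 66 bases), Kdm4b (3 matches, at 196, 96 and 66 bases) and Kdm1a, and in 34% of all windows. The GC box GGGCGG, also searched on both strands, stood in 5 of the 8 windows and in 30.5% of all windows, with 4 matches in Kdm4b, 4 in Kdm6b, 1 in Kdm4c and 0 in Kdm4a. A match is a run of letters and not a measured site. A link of any match to the dose differences was not tested, nor was whether the counted transcripts start at these windows.

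Kdm4a had 19.0 to 51.0 CPM (counts per library total, scaled by TMM, which sets the bulk of genes equal between libraries) in vehicle males with a median of 35.0. It had 27.2 to 45.9 CPM (median 37.4) in low-dose and 32.1 to 60.7 (median 44.0) in high-dose males. The ranges overlapped, and 26 of 28 high-dose males lay above the vehicle median. The high-dose rise was 0.37 on the log2 scale (SE 0.060, adjusted p = 9.76e-08), by edgeR's quasi-likelihood test with Benjamini-Hochberg adjustment over all genes tested, which gave all adjusted p-values of dose and ancestry in liver. The low-dose difference was 0.08 (SE 0.060, adjusted p = 0.343).

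Kdm4b had 13.8 to 32.6 CPM (median 23.9) in vehicle males, 13.8 to 29.9 (median 21.5) at the low dose and 11.3 to 25.4 (median 16.7) at the high dose. Here 27 of the 28 high-dose males lay below the vehicle median, although the ranges overlapped. The high-dose difference was -0.51 on the log2 scale (SE 0.074, adjusted p = 4.43e-09), and the low-dose difference -0.10 (SE 0.074, adjusted p = 0.379). The low-dose difference was 0.24 on the second date and -0.15 to -0.30 on the others, and without the second date it was -0.22 (adjusted p = 0.0419).

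Kdm4c had 12.7 to 18.2 CPM (median 16.4) in vehicle males, 10.1 to 17.7 (median 15.1) at the low dose and 10.1 to 16.7 (median 12.2) at the high dose. Of the 28 high-dose males 27 lay below the vehicle median and 19 outside the range of the vehicle males. The high-dose difference was -0.36 (SE 0.048, adjusted p = 3.14e-10). At the low dose it was -0.10 (SE 0.048, adjusted p = 0.133), and -0.11 (adjusted p = 0.0649) without the 2 liver libraries that stood apart and -0.15 (adjusted p = 0.0502) without date 1. With no filter on low counts it was -0.12 (edgeR, adjusted p = 0.0709).

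**Figure D1:**
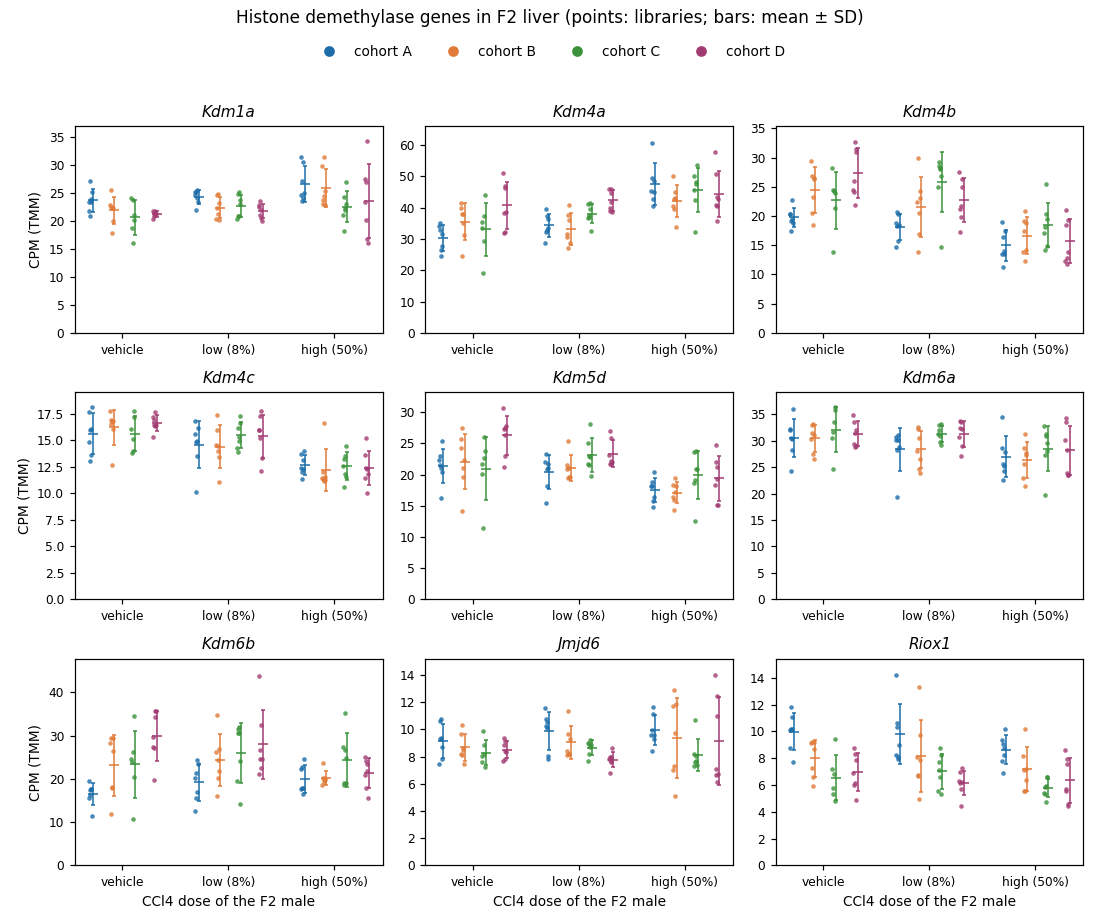
Levels of the 9 genes in liver in CPM (TMM), by CCl4 dose of the F2 male and cohort, with a point for each library and bars for mean ± SD. In all 4 cohorts the mean of Kdm4a is highest and the means of Kdm4b and Kdm4c are lowest at the high dose.

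A ratio of the counts of 2 genes within a library needs no scaling between libraries, and the Kdm4 genes were therefore also described as log2 ratios. The pairs were chosen after the values of the genes were seen, so the ratios have no test. The log2 ratio of Kdm4a to Kdm4b was 0.56 ± 0.21 (SD, n = 27; 0.22 to 1.06) in vehicle males. At the high dose it was 1.46 ± 0.37 (SD, n = 28), between 0.82 and 2.22. All 28 high-dose males lay above the vehicle median and 22 above every vehicle male. The mean difference within cohorts was 0.90, a 1.87-fold change of the ratio. It was 1.06, 0.82, 0.78 and 0.95 in cohorts A to D and 0.83 to 0.98 within the 4 necropsy dates.

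In low-dose males the ratio of Kdm4a to Kdm4b was 0.77 ± 0.29 (SD, n = 28), with a mean difference from vehicle of 0.21, and 6 of 28 lay above every vehicle male. The ratio of Kdm4a to Kdm4c lay between 0.33 and 1.57 in vehicle males and between 1.28 and 2.41 at the high dose, a mean difference of 0.75. The low-dose difference was 0.21, and -0.05 on the first date alone. For Kdm4b to Kdm4c the difference was -0.16 for the high and 0.00 for the low dose. The ratio of Kdm6b to Kdm6a differed from vehicle by 0.12 at the high and 0.16 at the low dose, with both signs among the cohorts at each. With counts divided by average transcript length, the high-dose differences of Kdm4a to Kdm4b and to Kdm4c were 0.87 and 0.71.

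**Figure D2:**
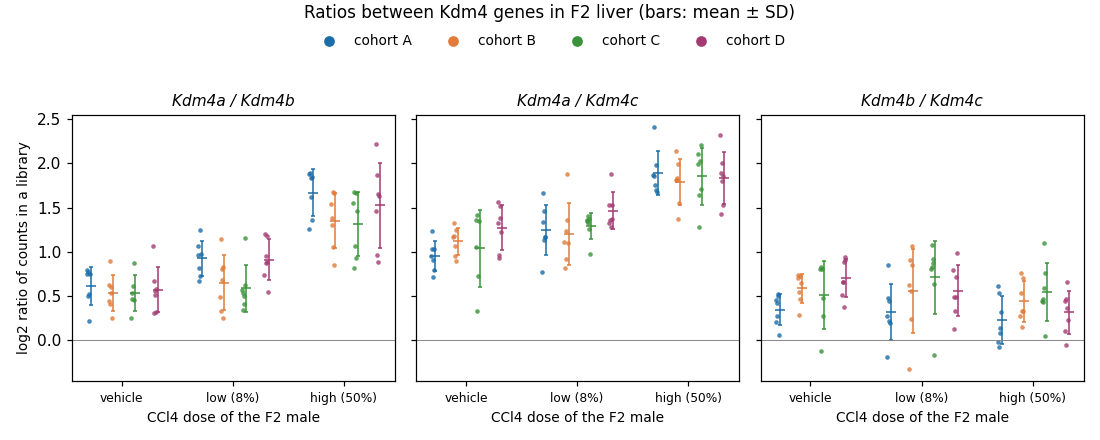
Log2 ratios of the counts of Kdm4a, Kdm4b and Kdm4c within each liver library, by CCl4 dose and cohort, with a point for each library and bars for mean ± SD. The ratios of Kdm4a to Kdm4b and to Kdm4c are highest at the high dose in all 4 cohorts, and those of Kdm4b to Kdm4c overlap widely between doses.

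Between high dose and vehicle 7 of the 9 genes passed, 2 higher and 5 lower, beside 72.2% of all genes tested (37.8% higher and 34.4% lower), so the share is near the background. Their median absolute log2 fold change was 0.18 and that of all genes 0.49. Kdm1a, the flavin-dependent enzyme, had 16.0 to 27.2 CPM (median 21.8) in vehicle males and 16.0 to 34.2 (median 24.2) at the high dose. It rose by 0.17 on the log2 scale (SE 0.050, adjusted p = 0.0017), with 23 of 28 high-dose males above the vehicle median and the ranges overlapping.

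The sex-linked genes both fell relative to the median gene. Kdm5d had 11.4 to 30.6 CPM (median 22.7) in vehicle males and 12.5 to 24.8 (median 18.4) at the high dose, a difference of -0.29 (SE 0.061, adjusted p = 2.31e-05) with 25 of 28 males below the vehicle median. Kdm6a had 24.3 to 36.4 CPM (median 31.4) in vehicle males and 19.7 to 34.6 (median 27.8) at the high dose, a difference of -0.18 (SE 0.050, adjusted p = 0.00123) with 24 of 28 below the median.

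Kdm6b, the other H3K27 demethylase, had 10.8 to 35.8 CPM (median 23.8) in vehicle males and 15.6 to 35.4 (median 20.2) at the high dose. It did not pass, with a difference of -0.09 (95% interval -0.27 to 0.09). Of the oxygenases, Riox1 had 4.80 to 11.8 CPM (median 7.89) in vehicle males and 4.42 to 10.2 (median 6.76) at the high dose. Its difference of -0.17 (SE 0.080, adjusted p = 0.0517) passed, but did not pass without date 1, 2 or 4 (adjusted p = 0.129, 0.188 and 0.158) or with no filter on low counts (0.157). Jmjd6 had medians of 8.50 and 8.84 CPM and did not pass (0.08, 95% interval -0.06 to 0.21).

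At the low dose 0 of the 9 genes passed with edgeR, beside 28.4% of all genes tested. Kdm4c was the 1 gene with an unadjusted p under 0.05, which 33.3% of all genes had, and DESeq2 called 1. Without date 2 Kdm5d passed beside Kdm4b (-0.12, edgeR, adjusted p = 0.0747). The widest 95% interval was that of Kdm6b, -0.09 to 0.27. Between high and low dose 8 genes passed, 2 higher and 6 lower, beside 64.8% of all genes (33.7% higher and 31.1% lower). Of these, Kdm6b (-0.18, SE 0.091, adjusted p = 0.0881) and Riox1 (-0.15, SE 0.079, adjusted p = 0.0923) lay just inside the threshold. Without the libraries that stood apart 5 genes passed, and Kdm6a, Kdm6b and Riox1 did not (edgeR, adjusted p = 0.135, 0.117 and 0.129). With any 1 date left out, Kdm6a and Kdm6b did not pass either (adjusted p = 0.135 to 0.353), nor Riox1 without date 1, 2 or 4. With the litter as a block 6 passed, without Kdm1a (adjusted p = 0.243) and Riox1 (adjusted p = 0.115), and DESeq2 called 5.

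The directions given so far are relative to the median gene. The 20 most abundant genes took a median of 31.0% of the counts in vehicle males, 29.2% in low-dose and 23.7% (12.4% to 32.0%) in high-dose males. With library totals as the scale, which was tried after the data were seen, the median of all genes was 0.62 for the high and 0.17 for the low dose. On that scale the high-dose differences of all 9 genes were above 0, from 0.08 for Kdm4b (adjusted p = 0.332), 0.25 for Kdm4c, 0.31 for Kdm5d and 0.43 for Kdm6a to 0.82 for Kdm1a and 0.99 for Kdm4a. Each of the 9 genes lay on the same side of the median gene under both scalings, at both doses. In whole tissue, fewer cells of a type and less RNA per cell cannot be told apart.

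**Figure D3:**
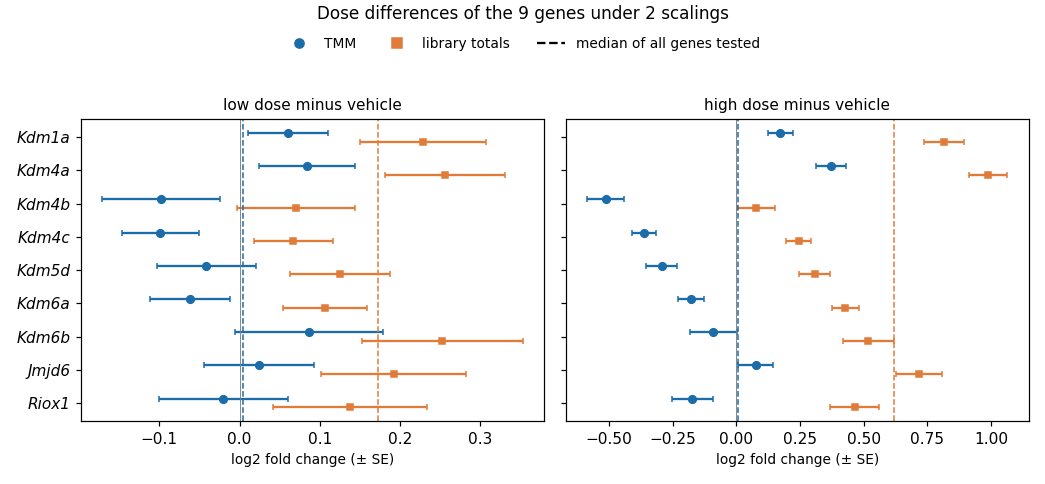
Log2 fold changes (± SE) of the 9 genes at the low (left) and high dose (right) against vehicle in liver, with TMM (circles) and library totals (squares) as the scale, and dashed lines at the median of all genes tested. With library totals the high-dose median moves to 0.62 and all 9 genes lie above 0, and each gene stays on its side of the dashed line.

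The high-dose differences of 7 genes had the same sign in all 4 cohorts: Kdm1a and Kdm4a were above vehicle, and Kdm4b, Kdm4c, Kdm5d, Kdm6a and Riox1 below. Kdm4a differed by 0.65, 0.25, 0.46 and 0.13 in cohorts A to D, of which the first 3 passed. Kdm4b differed by -0.40, -0.55, -0.29 and -0.80 and passed in 3, not in cohort C (edgeR, adjusted p = 0.113). Kdm4c differed by -0.30, -0.41, -0.32 and -0.42 and passed in all 4, beside 49.2%, 55%, 47.9% and 51.1% of all genes in the 4 cohorts. Kdm6b had both signs, with 0.27, -0.19, 0.06 and -0.49, of which the value in cohort D passed (edgeR, adjusted p = 0.0231). In the test of whether the dose effect differs between cohorts, 0 of the 9 genes passed with edgeR and 0 with DESeq2, beside 0.0105% of all genes. Kdm4a was the 1 gene with an unadjusted p under 0.05 in edgeR's test (adjusted p = 0.779), beside 5.98% of all genes.

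Within the 4 necropsy dates the high-dose difference of Kdm4a was 0.29 to 0.57, that of Kdm4b -0.64 to -0.30 and that of Kdm4c -0.41 to -0.28. Kdm6b was uneven between dates, with high-dose differences of 0.32 on the second date and -0.17, -0.05 and -0.28 on the others.

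Markers of other cell types could be read where the study's lists gave an identifier, for 1 of 8 hepatocyte, 3 of 7 macrophage and 1 of 5 endothelial genes and for 0 of the stellate cell, cholangiocyte, lymphocyte and dividing cell genes. Kdr, an endothelial receptor, had 50.1 to 132 CPM in vehicle males and 19.1 to 98.7 at the high dose (-1.05, SE 0.10, adjusted p = 4.6e-15). The macrophage genes Adgre1, Cd163 and Cd14 summed to 55.8 to 179 CPM in vehicle males and 75.9 to 198 at the high dose, of which Adgre1 (0.39, SE 0.10, adjusted p = 5.77e-04) and Cd14 (0.24, SE 0.13, adjusted p = 0.0868) passed and Cd163 did not (0.02, SE 0.098, adjusted p = 0.878). Tat had 345 to 1989 CPM in vehicle males and 161 to 1518 at the high dose (-0.12, SE 0.19, adjusted p = 0.588). Their part in the differences of the 9 genes was not tested.

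Of the other listed genes 8 had an identifier, writers of these marks, partners of the enzymes, and Jarid2, a JmjC protein without demethylase activity that joins the H3K27 methyltransferase complex. All were chosen by the same F0 effect. At the high dose 0 rose and 6 fell relative to the median gene, beside 72.2% of all genes that passed (34.4% lower), and the median difference of the 8 was -0.28 against 0.01 over all genes. These were the H3K4 methyltransferases Setd1b (-0.47, adjusted p = 2.05e-05), Kmt2c (-0.43, adjusted p = 3.36e-05) and Kmt2b (-0.31, adjusted p = 3.4e-05), the methyltransferase Setdb2 (-0.43, adjusted p = 1e-08), the Polycomb-associated Phf1 (-0.24, adjusted p = 0.00453) and Phf21a, a partner of Kdm1a (-0.16, adjusted p = 0.0305). Jarid2 (-0.09, adjusted p = 0.278) and Setdb1 (0.06, adjusted p = 0.197) did not pass. The 1 gene that passed at the low dose was the H3K9 methyltransferase Setdb1 (0.12, SE 0.044, adjusted p = 0.0314), beside 28.4% of all genes.

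The average length of the transcripts assigned to a gene can shift with the mix of its isoforms. Estimated lengths can also differ between libraries for other reasons, and the source of the shifts below was not tested. At the high dose 3 of the 9 genes passed (limma), all towards longer transcripts, beside 27.4% of the 12330 genes tested (25.5% longer and 1.93% shorter). Kdm6a had a median of 4237 bases in vehicle males and 4302 at the high dose (0.02 on the log2 scale, SE 0.0040, adjusted p = 7.65e-05). Kdm5d had 4772 and 4819 bases (0.06, SE 0.022, adjusted p = 0.0343), and Kdm1a 2549 and 2560 (0.01, SE 0.0038, adjusted p = 0.0494). Kdm5d did not pass without date 1, 2 or 4 (limma, adjusted p = 0.201, 0.107 and 0.207), nor Kdm1a without date 2 or 3 (adjusted p = 0.222 and 0.127). Kdm4c ranged most widely in proportion, from 871 to 1459 bases in vehicle males, and did not pass. None (0) passed at the low dose with limma, beside 0.0892% of all genes, and 0 had an unadjusted p under 0.05, beside 2.98% of all genes.

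For treatment of the F1 sire, 0 of the 9 genes passed in liver with edgeR and 0 with DESeq2, beside 0.2% of all genes. At an unadjusted p under 0.05, which 10.3% of all genes had, there were 2, Kdm6b (0.18, SE 0.077, adjusted p = 0.404) and Riox1 (-0.14, SE 0.066, adjusted p = 0.457), and the sign of the F1 estimate of Riox1 was a condition of the shorter list it is on. The other 7 estimates lay between -0.04 and 0.09.

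By treatment of the F0 sire, the contrast that chose the genes, Riox1 and Kdm6b stood at the ends. Riox1 had 5.91 to 11.8 CPM (median 9.16, n = 14) in vehicle males with a control F0 sire and 4.80 to 9.44 (median 6.83, n = 13) with a treated one. Its medians were 8.17 and 6.46 in low-dose males and 7.98 and 5.81 in high-dose males. Kdm6b had 11.5 to 29.5 CPM (median 17.8) in vehicle males with a control F0 sire and 10.8 to 35.8 (median 27.1) with a treated one, with medians of 21.6 and 25.6 in low-dose and 19.9 and 22.6 in high-dose males. The ranges overlapped at every dose for both genes.

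Over all doses the F0 difference was -0.40 for Riox1, -0.15 for Jmjd6 and -0.12 for Kdm1a, and 0.31 for Kdm6b, 0.20 for Kdm4b, 0.16 for Kdm5d, 0.14 for Kdm4a, 0.10 for Kdm6a and 0.04 for Kdm4c. Of these 7 had an adjusted p under 0.1, beside 8.93% of all genes, which is no finding since this contrast chose the genes, and 3 (Riox1, Kdm6b and Kdm1a) had one with the F0 sire as a correlated block. Jmjd6 (0.0975) was nearest inside and Kdm6a (0.142) nearest outside, which had 0.0345 without the libraries that stood apart. With transcript lengths as offsets the F0 difference of Kdm4c was 0.14 (edgeR, adjusted p = 0.033). Over the same contrast the markers Adgre1 and Cd163 differed by -0.30 each, Cd14 by -0.26 and Tat by -0.44, and Kdr by 0.21 and Lrp2 by 0.27. The markers with an identifier also come from the lists that the study chose by an F0 effect, so these differences support nothing. The part of the markers was not tested.

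The F0 sire was the unit treated. With F1 treatment and dose removed, the mean log2 CPM of Riox1 lay between 2.55 and 3.00 for the 9 treated sires and between 3.03 and 3.46 for the 8 control sires. The means of Kdm6b lay between 4.37 and 4.62 for treated and between 4.08 and 4.41 for control sires. For Kdm4c 5 of the 9 treated sires lay above the control median. Within the 4 necropsy dates the F0 difference was -0.45 to -0.24 for Riox1 and 0.17 to 0.63 for Kdm6b. These values come from the libraries that chose the genes and support nothing further. In the test of whether the F0 difference varies with the F2 dose 0 of the 9 genes passed with edgeR and 0 with DESeq2, beside 1.3% of all genes, and 0 had an unadjusted p under 0.05, beside 5.55% of all genes.

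**Figure D4:**
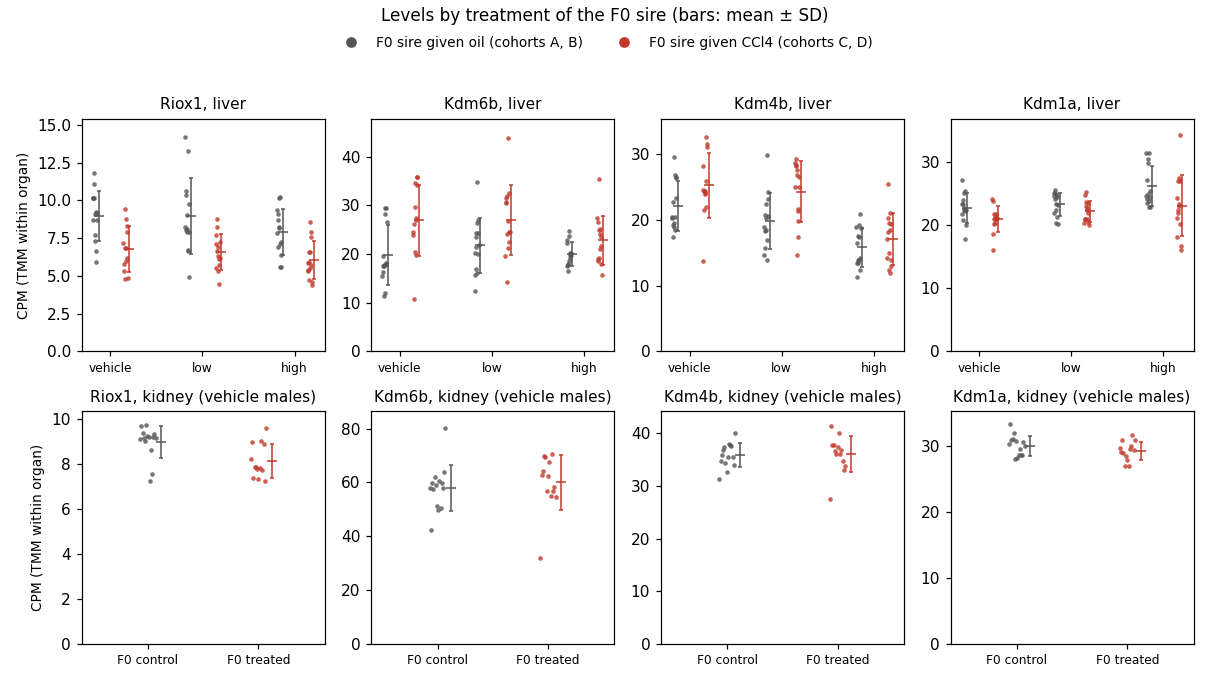
CPM (TMM) of Riox1, Kdm6b, Kdm4b and Kdm1a by treatment of the F0 sire, in liver at each F2 dose (top) and in kidney of vehicle males (bottom), with a point for each library and bars for mean ± SD. The liver contrast chose the genes, and in kidney Riox1 has medians of 9.18 CPM with a control and 7.85 with a treated F0 sire, with overlapping points.

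The kidney did not choose the genes, and there 0 of the 9 passed for F0 treatment with edgeR and 0 with DESeq2, beside 0.0109% of 18374 genes. Riox1 had 7.24 to 9.74 CPM (median 9.18, n = 14) with a control F0 sire and 7.25 to 9.59 (median 7.85, n = 13) with a treated one. The difference was -0.14 (SE 0.054, 95% interval -0.25 to -0.04, unadjusted p = 0.0143, adjusted p = 0.472 by edgeR), and it was below 0 on all 4 dates. Kdm4a had medians of 48.6 and 51.3 CPM, a difference of 0.07 (SE 0.030, unadjusted p = 0.0273, adjusted p = 0.509), above 0 on all 4 dates. These were the 2 genes with an unadjusted p under 0.05, beside 8.7% of all kidney genes. Kdm6b had medians of 58.6 and 62.3 CPM (0.05, 95% interval -0.13 to 0.23). For F1 treatment 0 genes passed in kidney with edgeR and 0 with DESeq2, beside 0% of all genes. None (0) had an unadjusted p under 0.05, which 6.67% of all kidney genes had. Whether the F0 difference varies between the organs was not tested, since the liver chose the genes. The kidneys came from males whose livers were among the libraries that chose the genes, so the organs are not independent.

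Between the organs of the 27 vehicle males, Kdm6b differed most in TPM. It had 1.71 to 10.7 TPM (median 6.76) in liver and 9.64 to 21.4 (median 17.6) in kidney, and was higher in kidney in all 27 males. In kidney it stood first in order beside Kdm4c (median 17.1 TPM), which it exceeded in 14 of 27 libraries. Relative to the bulk of genes the liver minus kidney difference of Kdm6b was -0.70 (log2, SE 0.10, adjusted p = 1.74e-07, edgeR with the animal as a replicate block), and with library totals the difference was -1.66.

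For the other 8 genes the sign of the organ difference depends on the scale. Relative to the bulk of genes all 8 were above 0 in liver and 7 passed, led by Kdm6a (0.77, SE 0.053, adjusted p = 1.12e-14), Riox1 (0.56, SE 0.066, adjusted p = 3.58e-09) and Kdm5d (0.50, SE 0.065, adjusted p = 2.82e-08), and Kdm4b did not (0.07, SE 0.063, adjusted p = 0.295). Without date 1 Kdm4a no longer passed (0.09, adjusted p = 0.277, against 0.17 with all dates), and without date 2 Kdm4b did (0.18, adjusted p = 0.00919). With Kdm6b this makes 8 of the 9 genes, beside 85.6% of all genes tested (40.5% higher and 45.1% lower in liver). With library totals the median of all genes was -1.02, and all 9 genes were lower in liver, Kdm6a by -0.19, Riox1 by -0.40 and Kdm5d by -0.46. In TPM, Jmjd6, Kdm1a and Kdm4a were higher in liver in 0 of 27 males, and Kdm6a and Riox1 in 10. Organ and library preparation cannot be told apart, since the kidney libraries were amplified for a different number of cycles.

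**Figure D5:**
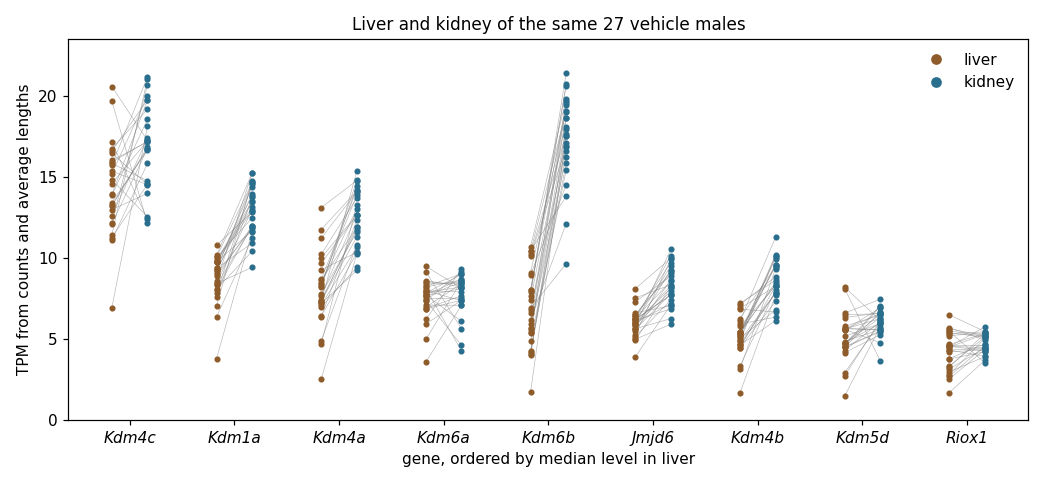
TPM of the 9 genes in liver and kidney of the same 27 vehicle males, with lines joining the organs of a male. Kdm6b is higher in kidney in all 27 males (medians 6.76 and 17.6 TPM), while Kdm6a and Riox1 overlap between the organs.

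Some of the genes also varied together between males of a group, with a positive correlation in 23 of the 36 pairs. Over the 83 liver libraries with the 12 group means removed, Pearson's r of log2 CPM between the 36 pairs of genes lay between -0.42 and 0.76 with a median of 0.19. Kdm5d and Kdm6a were closest (0.76), followed by Kdm4b with Kdm6b (0.74) and Kdm4a with Kdm5d (0.65), and Jmjd6 and Kdm4b were most opposed (-0.42). Kdm4b and Kdm4c, which both fell with dose relative to the median gene, had an r of 0.15. These values are a description, since the libraries share litters, dates and composition.

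Among 1477 genes with a symbol, those most like Kdm6b over the 83 libraries were Kmt2b, an H3K4 methyltransferase (r = 0.85, Spearman's rho 0.82), Prr12 (r = 0.84) and Mbd6 (r = 0.83). Most like Kdm1a were Wdr5, a core subunit of the H3K4 methyltransferase complexes (r = 0.83, rho 0.70), Pprc1 (r = 0.76) and the RNA helicase gene Ddx21 (r = 0.76). Most like Riox1 were Ttpal (r = 0.72, rho 0.69), Trim27 (r = 0.70) and Pwp2, which takes part in ribosome assembly (r = 0.68). They were picked as the highest among genes with a symbol, which the study chose by an F0 effect in liver or kidney, and have no test.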

How the data were processed

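Poly(A) RNA of 83 livers and 27 kidneys of F2 male rats was sequenced by the authors from stranded libraries. The authors estimated transcript abundances with Salmon 0.14.0 (submitters' processing notes) on an Ensembl annotation and summed them per gene with tximport. The deposited values are estimated counts, as whole numbers, and average transcript lengths in bases. The 9 genes and the gene lists were chosen with earlier results of these data known.

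Genes with a summed count over 10 in a group were scaled by TMM and tested with edgeR 4.0.16 (quasi-likelihood F test, R 4.3.3). Dose effects were means of the 4 within-cohort contrasts, the sires' treatments entered additively with the dose, and the organ comparison had the animal as a replicate block. Both organs came from the same males, whose deviations from the cohort means had a median correlation of 0.148 over 12663 genes, positive in 23 of 27 males. Log2 lengths of genes with a mean count over 50 were fitted with limma 3.58.1. A gene passed at a Benjamini-Hochberg adjusted p under 0.1 over all genes tested. Log2 CPM used a prior count of 2 and ratios a pseudocount of 0.5. TPM was computed from counts and lengths. All 9 genes were named, with up to 3 genes that passed from each list and dose comparison, by largest change, and the 3 genes most like Kdm6b, Riox1 and Kdm1a. Alternatives were DESeq2 1.42.0, its size factors, length offsets, other filters, a threshold of 0.05, blocks for date, litter or F0 sire, vehicle males alone and leaving out each date. Library totals, leaving out 4 libraries and the ratios were added after the data were seen. The models were tested on simulated data. The p-values take males as independent, although they share litters and sires.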

Additional observations from a re-analysis of the deposited data

Results flagged for a closer look

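In 15 of 144 combinations of gene, organ and group with 6 or 7 libraries, 1 library lay far from the others by Dixon's criterion, which chance gives in about 1 of 20. They came from 11 males, and values are in CPM (TMM) beside the range of the others of the group.

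In the kidneys of cohort D, the same male stood apart for 4 genes: Jmjd6 was high with 14.7 (others 9.51 to 11.3), and Kdm4c (18.6, others 20.4 to 21.5), Kdm5d (18.1, others 24.1 to 27.9) and Kdm6a (19.2, others 28.0 to 30.7) were low. In the kidneys of cohort C, Kdm4c was 17.8 in 1 male (others 19.9 to 21.0) and Kdm6b 31.9 in another (others 56.9 to 69.7). The male of cohort D and the cohort C male with low Kdm6b are the 2 whose kidney libraries stood apart over all genes.

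Among high-dose livers, 1 male of cohort C had 10.7 for Jmjd6 (others 7.33 to 8.22) and 19.7 for Kdm6a (others 27.2 to 32.8), again with Jmjd6 high and Kdm6a low. In cohort B, Kdm4c was 16.7 in 1 male (others 11.2 to 12.0), inside the range of the vehicle males, and Kdm6b 23.8 in another (others 18.6 to 20.3). Among low-dose livers, Kdm6a was 19.3 in 1 male of cohort A (others 28.2 to 31.0), Riox1 14.2 in another of cohort A (others 7.92 to 10.6), Kdm5d 25.4 in 1 male of cohort B (others 19.4 to 21.5) and Kdm4b 14.7 in 1 male of cohort C (others 24.9 to 29.3). Among vehicle livers, Kdm4c was 12.7 in 1 male of cohort B (others 16.1 to 17.8). The high-dose males with 10.7 for Jmjd6 and 16.7 for Kdm4c had the lowest median correlation of log2 CPM within their group (0.919 and 0.913). The same held for the low-dose males with 19.3 for Kdm6a and 14.7 for Kdm4b (0.947 and 0.933). It also held for the vehicle male with 12.7 for Kdm4c (0.961).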

How the results depend on the processing

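Counts of genes that passed moved as follows, and the causes were not tested. For low dose against vehicle (0 of the 9 genes) it was 1 with DESeq2, its size factors, a mean count over 10 and no filter. Without the 2 liver libraries that stood apart it was also 1, and with library totals 4. It was 1 and 2 without date 1 and date 2. For high against low dose (8) it was 5 with DESeq2, its size factors, no filter, without date 1, 2 or 4 and without the libraries that stood apart. For F0 in liver (7) it was 4 with library totals, 3 with the F0 sire as a correlated block, 0 in vehicle males alone (fewer samples), and 4, 4 and 2 without date 1, 2 and 4. For transcript lengths at the high dose (3) it was 1 without date 2. The 7 genes at the high dose and 8 between organs stayed within 1.5 times. With no replicate block for the animal the organ comparison again gave 8.

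With library totals, signs turned for Kdm4b (low 0.070, high 0.077, high against low 0.0074), Kdm4c (0.067, 0.25, 0.18), Kdm5d (0.13, 0.31, 0.18), Kdm6a (0.11, 0.43, 0.32) and Riox1 (0.14, 0.46, 0.33), and for Kdm6b at the high dose (0.52) and against the low dose (0.27). Between organs the values were -0.64 for Jmjd6, -0.70 for Kdm1a, -0.80 for Kdm4a, -0.89 for Kdm4b, -0.60 for Kdm4c, -0.46 for Kdm5d, -0.19 for Kdm6a and -0.40 for Riox1. For F1 they were 0.021 (Jmjd6), 0.022 (Kdm1a) and 0.030 (Kdm6a) in liver, and 0.033 (Jmjd6), 0.0092 (Kdm1a), 0.014 (Kdm4c), 0.022 (Kdm5d) and 0.021 (Kdm6a) in kidney.

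The other sign changes were of values near 0 that had not passed. Without date 1 they were -0.018 for Jmjd6 at the low dose, -0.0071 for Kdm4c by F1 in liver, -0.010 for Kdm4b and -0.014 for Kdm4c by F0 in kidney, and by F1 in kidney 0.040 (Jmjd6), 0.0045 (Kdm1a), -0.011 (Kdm4b), -0.013 (Kdm6b) and 0.017 (Riox1). Without date 2 they were -0.061 for Kdm6b at the low dose, -0.0098 for Kdm4c by F0 and -0.026 by F1 in liver, and -0.021 for Kdm4c by F0 in kidney. Without date 3 they were 0.0048 for Riox1 at the low dose and -0.0031 for Kdm4c by F1. Without date 4 they were 0.0058 for Kdm6b at the high dose, 0.022 for Kdm1a and 0.037 for Kdm6a by F1 in liver, and 0.011 for Kdm5d and 0.018 for Kdm6a by F1 in kidney. With length offsets the kidney F0 values were -0.0040 for Kdm4b and -0.080 for Kdm4c, with DESeq2's size factors -0.00050 for Kdm4c, and without the libraries that stood apart 0.0074 for Kdm5d. Length differences turned at the low dose without date 1 for Jmjd6 (0.00085), Kdm4a (0.00014) and Kdm6b (0.013) and without date 2 for Kdm4a (0.00016), and at the high dose without date 4 for Jmjd6 (-0.0052), Kdm6b (-0.011) and Riox1 (-0.0070).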
